A study of Mus musculus with 2 samples.

Results

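The microRNAs miR-146a, miR-155 and miR-21 were examined in quadriceps, a large thigh muscle, of NF90-NF45 double transgenic (dbTg) and wild-type (WT) mice. They were taken by their exact names on the array, mmu-miR-146a, mmu-miR-155 and mmu-miR-21. They are 3 of its 1023 mouse miRNAs, chosen as miRNAs induced by NF-kB, AP-1 or STAT3 signalling. Both RNA samples came from female animals of 15 to 16 weeks, and each was hybridised to 1 single-colour array of the same slide. The dbTg mice carry transgenes for NF90 and NF45, partner proteins whose complex binds double-stranded RNA. The complex is known to hinder the release of miRNA precursors from primary transcripts. The promoter of the transgenes and the number of animals behind each RNA sample are not given in the sources used here. With 1 array per genotype no statistical test was possible, and every difference below is one between 2 RNA samples.

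All 3 miRNAs are known products of inflammatory signalling. Toll-like receptors and cytokine receptors activate NF-kB, which drives miR-146a, and miR-146a in turn represses the adaptor proteins TRAF6 and IRAK1, so that it acts as a brake. miR-155 is processed from the noncoding BIC transcript, is switched on through NF-kB and AP-1 in macrophages and lymphocytes, and represses SOCS1 and SHIP1, which favours inflammatory signalling. miR-21 is driven by AP-1 and STAT3, is abundant in many cell types, fibroblasts and macrophages among them, and represses PDCD4 and Sprouty genes. In skeletal muscle, injury and dystrophy are known to raise all 3.

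The mature sequences are shown because the seed, bases 2 to 8 (in capitals), sets which mRNAs a miRNA recognises. They are those of RefSeq on build GRCm38.p6, in which 3 of 3 names were matched, and miR-146b is added because it shares a seed with miR-146a.
miR-146a: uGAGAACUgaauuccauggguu
miR-146b: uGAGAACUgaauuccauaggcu
miR-155: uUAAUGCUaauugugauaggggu
miR-21: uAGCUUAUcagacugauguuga
The seeds of the 3 miRNAs are unrelated. Those of miR-146a and miR-155 differ at 4 of 7 bases, those of miR-155 and miR-21 at 5, and those of miR-146a and miR-21 at 6. No other mouse miRNA of the RefSeq table has the seed of miR-155, whereas miR-21c has that of miR-21. Mature miR-146b differs from miR-146a by G18A and U21C, counted from the 5′ end, with the base of miR-146a first.

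The 3 miRNAs come from separate transcripts. Mature miR-146a lies at chr11:43374435-43374456 on the minus strand, with no other gene of the RefSeq table over it. Mature miR-155 lies at chr16:84714143-84714165 on the plus strand, within Mir155hg, the noncoding host gene also called Bic. Mature miR-21, listed by RefSeq as miR-21a-5p, lies at chr11:86584120-86584141 on the minus strand within the span of the protein-coding gene Vmp1, which encodes a membrane protein of autophagy. These positions are on build GRCm38.p6, and only the spans of genes were compared, not their exons. The hairpins of RefSeq are shown with the mature arm in capitals, since the complex of NF90 and NF45 binds double-stranded RNA. Its binding to these 3 hairpins was not tested.
miR-146a hairpin: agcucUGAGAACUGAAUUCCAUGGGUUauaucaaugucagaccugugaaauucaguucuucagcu
miR-155 hairpin: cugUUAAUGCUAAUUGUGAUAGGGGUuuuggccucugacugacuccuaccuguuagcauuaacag
miR-21 hairpin: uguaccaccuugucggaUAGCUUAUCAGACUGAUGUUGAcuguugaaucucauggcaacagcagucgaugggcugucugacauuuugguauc
In all 3 hairpins the mature arm measured here is the one nearer the 5′ end.

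Each miRNA was read by 2 probes, which are the same DNA complement with and without 1 base, in capitals, at the 3′ end. The sequences are shown because the shorter probe was dim where the miRNA was scarce.
miR-146a: aacccatggaattcagttC
miR-155: acccctatcacaattagC
miR-21: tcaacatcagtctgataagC
The longer probes pair with bases 4 to 22 of miR-146a, 6 to 23 of miR-155 and 3 to 22 of miR-21, so they cover all of the 3′ part and only some of the seed. Each probe was spotted 20 times per array. After spots flagged as outliers were left out, 117 of the 120 spots on the dbTg array and 112 of the 120 on the WT array were used.

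Signals are background-subtracted spot intensities. The scanner software flags each spot that is well above background, and a probe with this flag on a share of 0.5 or more of its spots counted as detected. Negative control spots averaged 5.24 ± 5.99 on the dbTg array (SD, 984 spots) and 6.11 ± 5.99 on the WT array (SD, 988 spots). Of the 43200 miRNA spots of each array, 17.7% were well above background on dbTg and 14.9% on WT, and none was saturated. For ratios, signals were scaled to the array's 75th percentile over probes that both arrays detected. It was 1220 for dbTg and 882 for WT, which lowers each log2 ratio by 0.47. The log2 ratio is dbTg over WT. Its spot SE reflects how copies of a probe vary within an array and says nothing of animals. Of the mouse miRNAs, 175 were detected on both arrays, with a median log2 ratio of 0.00. At least 2-fold higher in dbTg, the size used for counting, were 20 of these (11.4%), and at least 2-fold lower were 18 (10.3%). A share of 25.1% was at least 1.5-fold higher, and 50.9% were above 0.

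miR-146a, the brake on Toll-like receptor signalling, was 5.12-fold higher in dbTg muscle. Its 19-base probe had a mean signal of 576 ± 22.5 on the dbTg array (SD, 20 spots) and 81.3 ± 10.1 on the WT array (SD, 20 spots). The spots ran from 538 through a median of 581 to 611 on dbTg, and from 63.3 through 85.4 to 93.1 on WT. Every dbTg spot was brighter than every WT spot, before and after scaling. How many of all probes separate in this way was not counted, so this describes only the spots of this probe. The log2 ratio was 2.36 (spot SE 0.042). At the 20 array positions that hold this probe, the ratio of the 2 spots ranged from 2.07 to 2.78 on the log2 scale, so all 20 were at least 2-fold higher in dbTg.

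The 18-base probe of miR-146a was detected on the dbTg array only. It had a mean signal of 142 ± 13.8 there (SD, 20 spots) and 17.7 ± 5.47 on the WT array (SD, 18 spots). All 20 of its dbTg spots and none of its 18 WT spots were well above background. Against the lowest detected signal of the WT array, 34.5, this probe was at least 2.97-fold higher in dbTg. Since none of its WT spots was flagged as well above background, only this bound is taken from it.

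miR-155, a miRNA of activated macrophages and lymphocytes, was 1.93-fold higher in dbTg muscle, just short of the 2-fold size. Its 18-base probe had a mean signal of 179 ± 16.4 on the dbTg array (SD, 20 spots) and 67.1 ± 10.8 on the WT array (SD, 19 spots). The spots ran from 153 through a median of 178 to 210 on dbTg, and from 50.3 through 64.5 to 84.2 on WT, with no overlap before or after scaling. The log2 ratio was 0.95 (spot SE 0.061). At the 19 array positions usable on both arrays, the spot ratio lay between 0.41 and 1.36 on the log2 scale. All 19 were above 0 and 10 of them reached 2-fold, so the spots straddled that size.

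The 17-base probe of miR-155 was also detected on the dbTg array only, with 19 of 19 spots well above background there and 2 of 19 on the WT array. Its mean signal was 60.4 ± 6.12 on dbTg and 26.4 ± 5.28 on WT (SD, 19 spots each). The spots ran from 48.1 to 73.7 on dbTg and from 17.0 to 35.7 on WT, and after scaling these ranges overlapped. It was the only one of the 6 probes of the 3 miRNAs with such an overlap. The share of all probes on the arrays without overlap was not counted, so this does not set the 3 miRNAs apart. With the scaling used here, this probe was at least 1.26-fold higher in dbTg. The WT level of miR-155, like that of miR-146a, therefore rests on 1 of 2 probes.

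miR-21, the most widely expressed of the 3, was 1.76-fold higher in dbTg muscle. It was detected by both probes on both arrays, and its spots varied least. The 20-base probe had a mean signal of 13223 ± 333 on the dbTg array (SD, 18 spots) and 5080 ± 214 on the WT array (SD, 19 spots). The spots ran from 12577 through a median of 13277 to 13703 on dbTg, and from 4721 through 5131 to 5428 on WT. The 19-base probe had 6869 ± 198 on dbTg (SD, 20 spots) and 3024 ± 73.6 on WT (SD, 17 spots). On neither probe did the spots of the arrays overlap, before or after scaling. The SD over the spots of an array was only 2.4% to 4.2% of the mean. Separation of the spots therefore reflects their precision, and its share among all probes was not counted.

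The log2 ratio of miR-21 over both probes was 0.81 (spot SE 0.010). At the 18 positions of the 20-base probe usable on both arrays the spot ratio ranged from 0.84 to 0.98, and at the 17 of the 19-base probe from 0.68 to 0.76. None of these positions reached 2-fold. The probes gave log2 ratios of 0.91 and 0.72, and their difference of 0.20 (spot SE 0.021) was larger than the spread of the spots. The disagreement between probes thus set a wider margin for miR-21 than its small spot SE does.

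**Figure D1:**
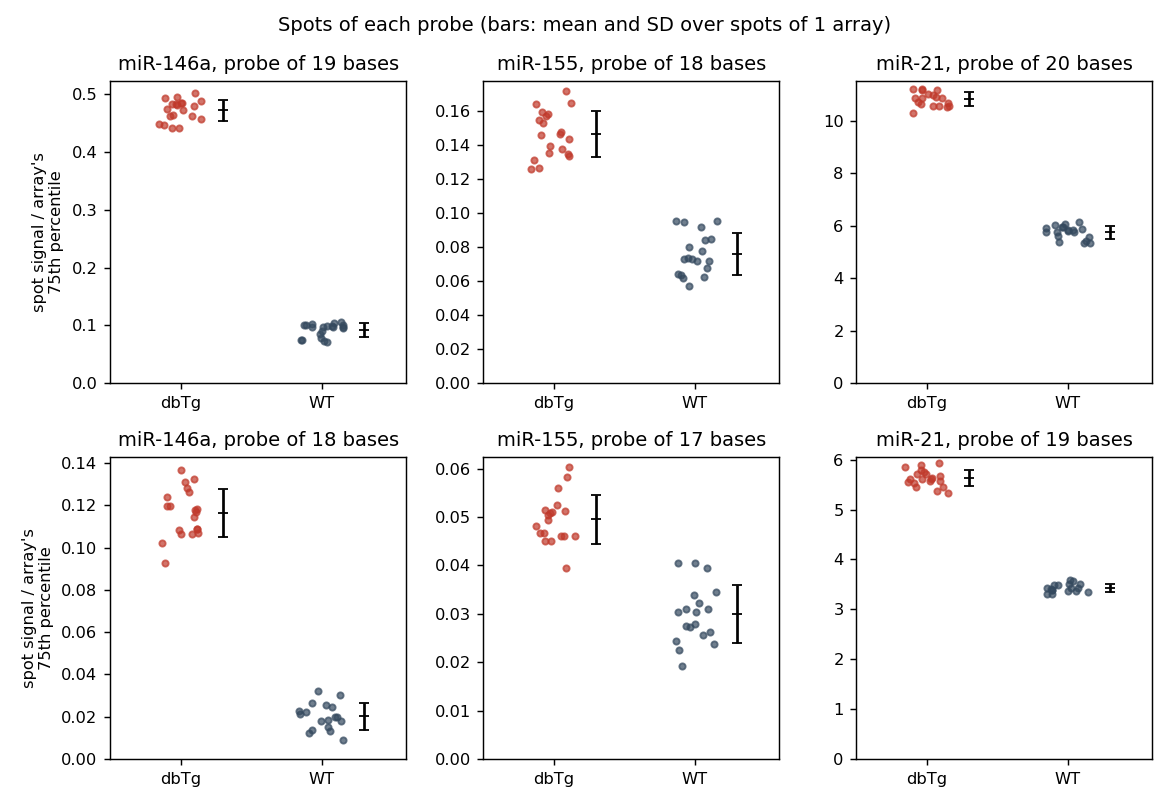
Spot signals of the 6 probes of miR-146a, miR-155 and miR-21, each divided by the 75th percentile of its array, on dbTg (red) and WT (dark blue). Dots are spots of 1 array, and bars give their mean and SD. The spots of the 2 arrays overlap for the 17-base probe of miR-155 and for no other of the 6. The share of all probes without overlap was not counted.

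All 3 miRNAs lay above the median of all miRNAs, and miR-146a stood well apart from the other two. miR-146a ranked 2 of 175 from the highest, miR-155 ranked 24 and miR-21 ranked 31. The 36 miRNAs detected on dbTg only have no ratio and are not in this ranking. The log2 ratio of miR-146a exceeded that of miR-155 by 1.41 (spot SE 0.074) and that of miR-21 by 1.54 (spot SE 0.043). The ratios of miR-155 and miR-21 differed by 0.13 (spot SE 0.062), less than the 0.20 between the probes of miR-21. Of the 3, 1 was at least 2-fold higher, against 11.4% of all miRNAs, and all were at least 1.5-fold higher, against 25.1%. Their median log2 ratio was 0.95, beside 0.00 for all 175.

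**Figure D2:**
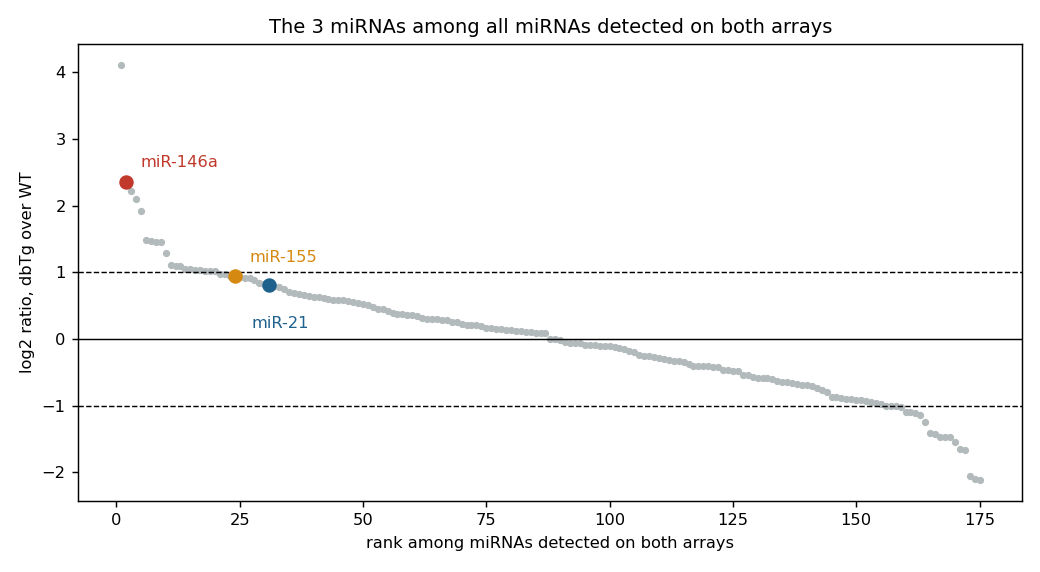
Log2 ratio of dbTg over WT for the 175 miRNAs detected on both arrays, from highest to lowest, with miR-146a, miR-155 and miR-21 marked. Dashed lines mark 2-fold. miR-146a is at 2.36, rank 2, and miR-155 and miR-21 are at 0.95 and 0.81, below the upper line.

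The second arms of the hairpins gave no signal. miR-146a*, miR-155* and miR-21* were read by 8 probes, and none of their spots was well above background on either array. The mean signals of these probes ran from -4.52 to 8.72 on the dbTg array and from -6.61 to 0.069 on the WT array. The brightest negative control spots reached 21.7 on dbTg and 25.4 on WT. A difference between the genotypes in the second arms was therefore not detectable with these arrays.

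miR-146b, which shares the seed of miR-146a and is also induced in inflammation, was higher in dbTg by less than miR-146a. Its 19-base probe had a mean signal of 174 ± 17.3 on the dbTg array and 83.8 ± 11.2 on the WT array (SD, 20 spots each). The log2 ratio was 0.58 (spot SE 0.054), and the scaled spots of the arrays overlapped. Its 18-base probe was detected on dbTg only, at a mean signal of 42.1 against 16.4 on WT, and allows no bound above 1-fold. The log2 ratio of miR-146a exceeded that of miR-146b by 1.77 (spot SE 0.068). The target of the longer miR-146a probe differs from the same stretch of miR-146b at 2 of 19 bases. How much of each signal comes from the other miRNA was not tested. For the longest probes of miR-155 and miR-21, the closest other mature miRNAs had 6 and 3 mismatches.
miR-590-5p, taken as a seed partner of miR-21 from general knowledge and not from the RefSeq table, was too dim for detection on both arrays.

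The miRNAs closest in ratio to each of the 3 were taken as the 3 with the smallest difference in log2 ratio, over the 2 arrays. For miR-146a these were miR-142-3p at 2.23, a miRNA of blood cells, miR-34a at 2.10, a target of p53, and miR-342-3p at 1.92, a miRNA of lymphoid and myeloid cells. For miR-155 they were miR-3102* at 0.95, miR-199a-5p at 0.97, a miRNA of fibroblasts, and miR-497 at 0.92, which belongs to the miR-15/16 seed family. For miR-21 they were miR-195 at 0.83, from the same cluster as miR-497, miR-500 at 0.79, and miR-199a-3p at 0.85, the other arm of the miR-199a hairpin. With 2 arrays such closeness describes 1 ratio per miRNA and no shared pattern.

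Other miRNAs known to be induced by the same pathways lay on both sides of the median, and none detected on both arrays had a log2 ratio as high as that of miR-146a. Of 18 such miRNAs, 9 were detected on both arrays, 3 on dbTg only and 6 on neither. Of the 9, none was at least 2-fold higher, against 11.4% of all miRNAs, and 1 was at least 2-fold lower, against 10.3%. The 3 on dbTg only have a lower bound in place of a ratio and are not in these counts. The 9 had a median log2 ratio of 0.56, beside 0.00 for all 175. Above 1.5-fold were 3 of them, against 25.1% of all miRNAs, with log2 ratios of 0.92 for miR-125a-5p, 0.78 for miR-221 and 0.66 for let-7e. The value of miR-125a-5p differed from that of miR-155 by less than the spot SE. miR-125a-5p and let-7e share a cluster with miR-99b, at 0.56, and are known to respond to Toll-like receptors. miR-221, whose promoter AP-1 and NF-kB are known to use, targets the cell-cycle inhibitor p27. miR-301a, an activator of NF-kB, came to 0.13, which turns below 0 with scaling on positive control probes or on all mouse miRNA probes.

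Another 3 members of that list lay below the median. miR-365 had a mean signal of 820 on the dbTg array and 1572 on the WT array, a log2 ratio of -1.40 (spot SE 0.010). miR-181b, which restrains NF-kB through importin-α3, came to -0.98. miR-212-3p, an induced miRNA of the miR-132 cluster, came to -0.42, which turns above 0 without scaling. The 3 seen on dbTg only were miR-31, at least 1.61-fold higher, miR-203, at least 1.16-fold higher, and miR-222, whose bound is about 1-fold. These bounds hold for the scaling used here. The mean signal of miR-31 was 80.4 on dbTg and 0.65 on WT, so the size of its difference is not known beyond the bound. miR-9, miR-132, miR-147, miR-187, miR-224 and miR-511-5p were detected by neither array. The list names miR-511 with no arm. Its other arm, miR-511-3p, known from macrophages, was detected on both arrays at 0.98 (spot SE 0.056), above miR-155, with 1 of its 2 probes detected on WT. With that arm in the list, chosen after its value was seen, 10 members were detected on both arrays, of which 4 were above 1.5-fold, and the median was 0.57.

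**Figure D3:**
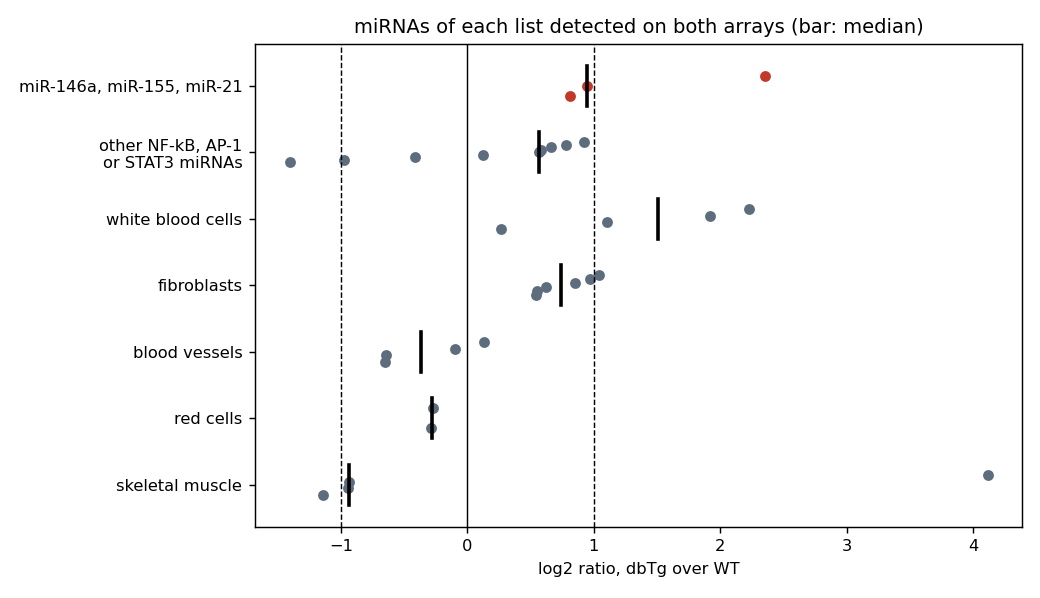
Log2 ratio of dbTg over WT for the members of each list detected on both arrays, with the list median as a bar and 2-fold as dashed lines. The median is 0.95 for miR-146a, miR-155 and miR-21, 0.56 for the other miRNAs of the same pathways, 1.51 for white blood cell markers and 0.74 for fibroblast markers, and it lies below 0 for the muscle list and, as scaled here, for the vascular and red cell lists.

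Marker miRNAs of white blood cells and of fibroblasts were higher in dbTg muscle along with miR-146a, miR-155 and miR-21. Of 5 white blood cell markers, 4 were detected on both arrays, all above 0, against 50.9% of all miRNAs, and 3 were at least 2-fold higher, against 11.4% of all miRNAs. They were miR-142-3p at 2.23, miR-342-3p at 1.92 and miR-223, a myeloid miRNA, at 1.11, and the lymphocyte miRNA miR-150 came to 0.26, which turns below 0 with scaling on positive control probes. The remaining marker, miR-142-5p, was detected on dbTg only, at least 4.18-fold higher. The summed level of the 5, in units of each array's 75th percentile, was 2.11 on dbTg and 0.641 on WT. None of the 5 was dark on both arrays. The 6 fibroblast markers were detected on both arrays, all above 0, against 50.9% of all miRNAs, and 1 was at least 2-fold higher, against 11.4%. The 6 are not independent, since miR-140 and miR-140* are arms of the same hairpin, as are miR-199a-3p and miR-199a-5p. The lowest log2 ratio was that of miR-140 (0.54) and the highest that of miR-214 (1.04), with a summed level of 5.59 on dbTg and 3.26 on WT. Both lists were chosen with earlier results of these data known, so these shares are descriptive and no test. The part of either cell type in the values of miR-146a, miR-155 and miR-21 was not tested. In a piece of whole muscle, more cells of a type and more RNA per cell cannot be told apart.

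Markers of other cells varied in direction. The 4 vascular markers ran from -0.65 for miR-145 to 0.13 for miR-126-3p, with a median log2 ratio of -0.37 and a summed level of 6.37 on dbTg and 6.40 on WT. The red cell miRNAs miR-144 and miR-451 came to -0.27 and -0.29. Without scaling, where all ratios are higher by 0.47, the medians of both lists are above 0. Of the muscle miRNAs that define the tissue, miR-1, miR-133a and miR-133b came to -0.93, -1.14 and -0.94, and miR-206, a miRNA of regenerating fibres, to 4.11. These miRNAs, which skeletal muscle is known for, were all detected on both arrays, with a summed level of 178 on dbTg and 315 on WT.

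Only miR-146a kept its place past 2-fold however the arrays were processed. Over 15 alternatives its log2 ratio ran from 1.55, with normexp background correction, to 2.83 without scaling. miR-155 ran from 0.34, with normexp correction, to 1.42 without scaling, and passed 2-fold in 4 of 15. miR-21 ran from 0.35, with scaling on positive control probes, to 1.28 without scaling, and passed 2-fold in 2 of 15. All 3 stayed above 0 in each of the 15. Some alternatives could not move a value. With 1 probe detected on both arrays, the brightest or the dimmer probe alone gave miR-146a and miR-155 their reported ratios of 2.36 and 0.95. Requiring all spots to be well above background left all 3 as reported, and so did dropping the filter on dim probes for miR-21. Since a scaling moves every miRNA alike, the distance to the median of all miRNAs is steadier. Leaving out the setting with no filter on dim probes, it was 1.75 to 2.64 for miR-146a, 0.54 to 0.99 for miR-155 and 0.69 to 1.03 for miR-21. In the same settings the rank from the highest was 2 to 4 for miR-146a, 18 to 37 for miR-155 and 11 to 34 for miR-21. With normexp correction miR-21, at 0.83, lay above miR-155, at 0.34. Without the filter miR-146a ranked 26 of 548.

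**Figure D4:**
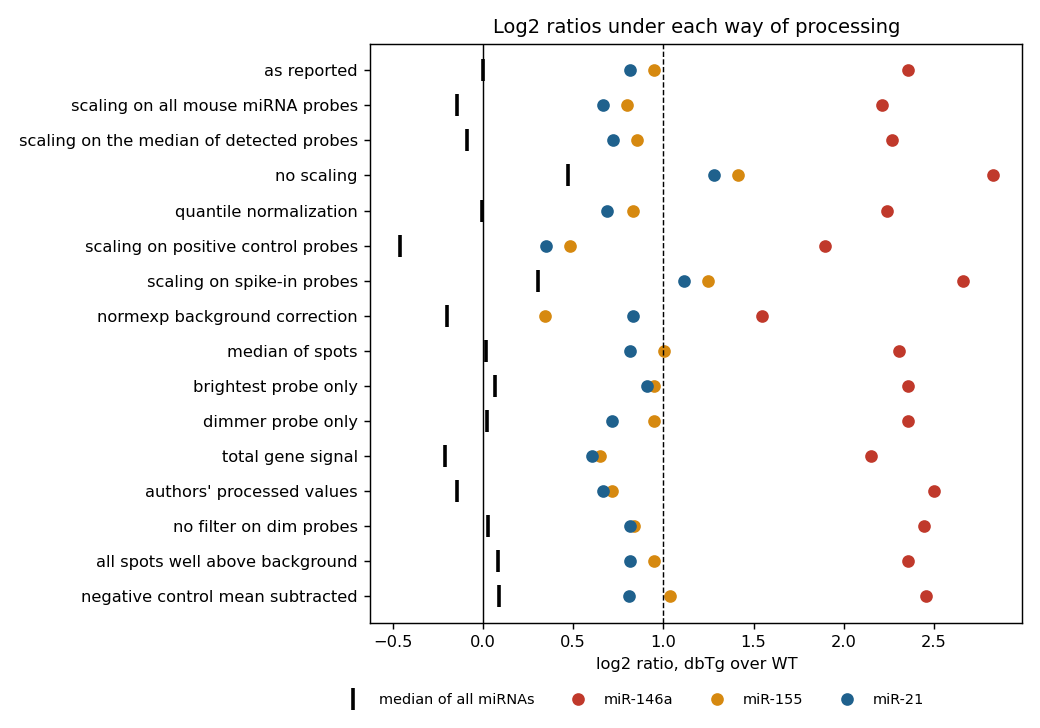
Log2 ratio of dbTg over WT for miR-146a (red), miR-155 (orange) and miR-21 (blue) as reported and under 15 alternatives, with the median of all miRNAs as a black tick and 2-fold as a dashed line. miR-146a lies right of 2-fold throughout, between 1.55 and 2.83, while miR-155 and miR-21 pass it in 4 and 2 of the 15.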

How the data were processed

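Total RNA was labelled with Cy3 and hybridised to miRNA arrays, 1 per genotype, per the labels' protocols. The authors deposited spot intensities from Agilent Feature Extraction 10.7.3.1, which per the file headers subtracted a spatially fitted background. A deposited table of processed intensities was an alternative.

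Spots flagged as outliers were left out and the rest averaged per probe. Arrays were divided by the 75th percentile of miRNA probes detected on both, and the log2 ratio is the mean over probes detected on both arrays. A bound uses the higher of the array's lowest detected signal and the dim probe's own, and it moves with the scaling as a ratio does. Computations used Python 3.11.15 with pandas 2.3.3, numpy 2.4.6 and matplotlib 3.10.9, and limma 3.58.1 in R 4.3.3 for normexp. On simulated data for 204 miRNAs, 10 of 10 changed 3-fold and 10 of 10 changed 4-fold were counted in the right direction. Of those changed 2.5-fold, 8 of 10 were, and of the unchanged ones 0 of 174 were counted. Both simulated arrays came from the WT probe means, with noise between spots and a common difference in brightness. They hold no variation between animals or between arrays, so they cannot show how often such variation alone reaches 2-fold.

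The miRNAs and lists were chosen with earlier results of these data known. By the naming rule, miRNAs of 9 lists detected on an array could be named, plus the 3 closest ratios per member. In the lists, miR-212 and miR-511 were read as miR-212-3p and miR-511-5p, and miR-511-3p is given beside them. The number of arrays limits the precision.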

Additional observations from a re-analysis of the deposited data

How the results depend on the processing

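The direction of miR-146a, miR-155 and miR-21 was the same in all 15 alternatives, and miR-146a stayed past 2-fold in each. Some of the 15 could not change a value, as described above. miR-155 passed 2-fold without scaling (log2 ratio 1.42) and with the median of spots in place of the mean (1.01). It also did with scaling on spike-in probes (1.25) and with the mean of the negative control spots subtracted (1.04), both chosen after seeing the data. miR-21 passed it without scaling (1.28) and with spike-in probes (1.12). How many miRNAs were at least 2-fold higher and lower, 20 and 18 as reported, depended on the scaling: 10 and 31 with all mouse miRNA probes, 13 and 26 with the median of detected probes, 49 and 8 without scaling, 7 and 48 with positive control probes, and 35 and 11 with spike-in probes. Normexp correction gave 7 and 12, total gene signal 10 and 32, and the authors' values 11 and 31. Without a filter on dim probes 118 and 91 of 548 were counted. A size of 1.5-fold gave 44 and 44, and of 3-fold 5 and 5. The causes were not tested, except that a scaling moves all ratios alike. No paired analysis was possible because each genotype has 1 array. Signals near background limit miR-146a and miR-155 on the WT array.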

Other observations

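The authors' deposited table holds different numbers of probes for miR-146a on the 2 arrays. Its value was 1.75 for dbTg and 0.309 for WT, a log2 ratio of 2.502. Among values above the column's lowest, 75.5% of 249 on dbTg and 76.7% of 202 on WT equal the scanner files' total gene signal divided by 1 constant, within 0.1%. It is 154 for dbTg and 74.3 for WT. Multiplied by it, the dbTg value equals the total signal of both probes within 0.2%, and the WT value that of the brighter probe alone. With both probes on each array the same constants give 2.22, and with the brighter probe on each 2.18. miR-146b is put together the same way in the authors' deposited table, at 0.72, and comes to 0.46 with both probes on each array. For miR-155 and miR-21 the deposited values, with log2 ratios of 0.72 and 0.67, hold both probes on both arrays.

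The genome positions that the scanner files give for the probes were not used. For miR-146a and miR-21, both on the minus strand, the files place the main arm at lower coordinates than the second arm, whereas RefSeq places it at higher coordinates. For miR-155, on the plus strand, the order is the same in both. The mapped stretch of each of the 8 probes of miR-146a, miR-146b, miR-155 and miR-21 is 1 base shorter than the probe.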
